A study of Mus musculus with 47 samples.

Results

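Transcripts of inguinal white fat (IWAT) and brown fat (BAT) were compared between a methionine-restricted (MR) and a control (CON) diet, and the change in IWAT was set against the change in BAT gene by gene. The members were all 24 libraries of these depots, of 47 libraries in the whole series, with 6 libraries in each of the groups IWAT MR, IWAT CON, BAT MR and BAT CON. All groups were male mice of the inbred strain C57BL/6J with no further allele or agent, 5 weeks old at the start, kept at 23 C, fed freely on their diet over 11 weeks and fasted for 5 h before dissection. The same 12 animals gave both depots, so each animal number names 1 IWAT and 1 BAT library. The sources used here do not give the composition of the diets. The design asks whether the restricted diet moved the same genes in both depots and where the depots differed.

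Methionine is an essential sulfur amino acid, and a diet low in it is known in rodents to raise energy expenditure and to limit fat gain. Brown adipocytes burn fatty acids in dense mitochondria, where the uncoupling protein UCP1 lets protons return without ATP synthesis. White adipocytes mainly store triglyceride and secrete hormones such as leptin, but inguinal fat can acquire brown-like (beige) adipocytes that express UCP1.

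Each library was a collection of 3' end tags, counted per gene symbol. IWAT libraries held 4887004 to 7094761 tags and BAT libraries 5252688 to 13117537. Levels are given as CPM, the TMM-scaled tag count relative to library size, and a count of 0 allowed 0.311 to 0.67 CPM in IWAT and 0.215 to 0.57 CPM in BAT (3 counts, counting error only). The depots kept their own markers. Zic1, a transcription factor of classical brown fat, had 0 counts in 6 of 6 IWAT MR and 5 of 6 IWAT CON libraries, against 9.7 to 33.5 CPM in BAT MR and 2.36 to 12.6 CPM in BAT CON. Hoxc9, a positional marker of inguinal fat, was at 0 in 6 of 6 BAT MR and 5 of 6 BAT CON libraries. In IWAT it had medians of 5.73 CPM in MR and 6.19 CPM in CON libraries, and was at 0 in 1 of 6 libraries of each.

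Libraries stood apart in IWAT. Spearman's correlation with the rest of the depot had a median of 0.672 for MR3116, 0.658 for CON3106 and 0.744 for CON3115, while the other 9 IWAT libraries had 0.863 to 0.92 and BAT libraries 0.899 to 0.96. Other libraries stood out in markers of other cell types. The summed level of 22 lymphocyte markers was 1516, 1580 and 1229 CPM in IWAT MR3102, MR3104 and MR3113 and 2833 CPM in IWAT CON3107, against 21.5 to 78.4 CPM in the other 3 IWAT MR libraries and 17.7 to 71.8 CPM in the other 5 IWAT CON libraries. In BAT it was 7.22 to 16.3 CPM in MR libraries, against 629 CPM in CON3106 and a median of 12.2 CPM in CON libraries. The lymphocyte-rich libraries thus made up 3 of 6 in IWAT MR and 1 of 6 in IWAT CON, and counts without these 4, a setting chosen after the levels were seen that leaves 3 MR and 5 CON libraries in IWAT, are given beside the results. In bulk tissue, fewer cells of a type and less RNA per cell cannot be told apart. The depots also differed in spread. The median standard error of a log2 fold change between diets was 0.456 in IWAT and 0.228 in BAT.

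**Figure D1:**
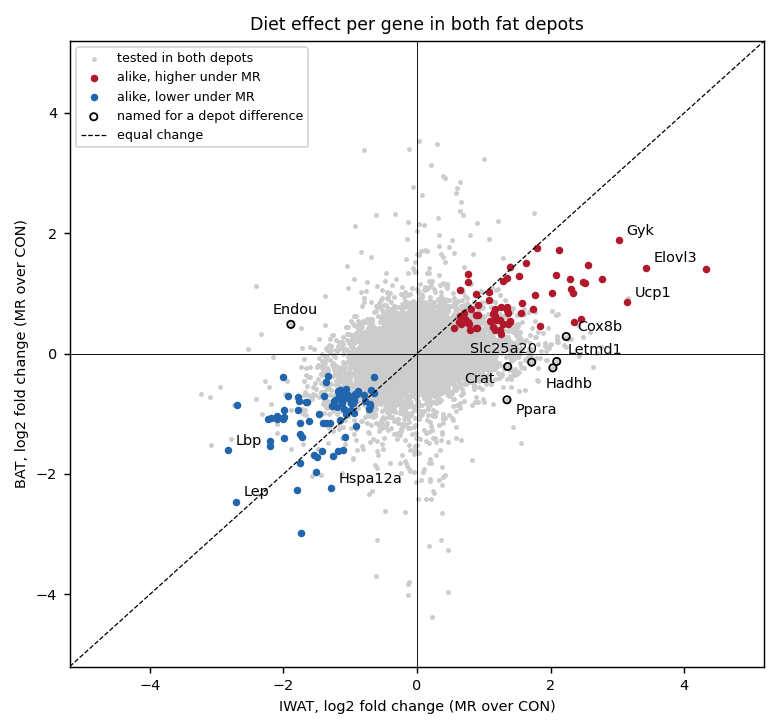
Each point is 1 of 10259 genes tested in both depots, with its log2 fold change (MR over CON, no units) in IWAT on the horizontal axis and in BAT on the vertical axis. Red and blue points are the 71 higher and 83 lower genes that moved alike, open circles are genes named for a depot difference, and the dashed line marks equal change. Most red points lie below the dashed line, and the circled oxidation genes lie near 0 on the BAT axis and near 2 on the IWAT axis.

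Across the genome the diet effects of the depots ran weakly together. Pearson's r between the log2 fold changes in IWAT and in BAT was 0.279 over 10259 genes, which are not independent replicates and share the 12 animals, and 56.6% of these genes had the same sign. Among genes with an unadjusted p under 0.05 in both depots, 205 had the same sign and 20 had opposite signs. Of the 120 genes that passed in the fit of BAT libraries, 112 were tested in IWAT and 97 of those had the same sign there. Where each depot was fitted alone in edgeR, with a threshold of 0.05 on the Benjamini-Hochberg adjusted p, 3 of 11101 genes passed in IWAT (0.027%) and 120 of 10791 in BAT (1.11%). The IWAT count was 0 without any 1 IWAT library other than MR3116 and CON3114, 3 without MR3116 and 41 without CON3114. The BAT count was 66 without MR3101, 79 without MR3102, 50 without MR3104, 71 without CON3103, 66 without CON3112 and 63 without CON3114.

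Genes that moved alike were those whose diet effect averaged over both depots passed (adjusted p under 0.05), with the same sign in both depots and an unadjusted p under 0.05 in each. This held for 154 of 11884 genes (1.3%), of which 71 were higher (0.597%) and 83 were lower (0.698%) under restriction. The average effect alone passed for 291 genes (2.45%). The 71 higher genes had median log2 fold changes of 1.25 in IWAT and 0.69 in BAT, and the 83 lower genes had -1.25 in IWAT and -0.87 in BAT. The IWAT change was the larger in 130 of the 154 genes, but the rule asks for an unadjusted p in each depot, which with the wider spread of IWAT takes a larger change there. The 95% interval of the depot difference covered 0 in 123 of the 154 genes and excluded it in 31, none of which passed the adjusted threshold. Its median half-width was 0.93 on the log2 scale, so equal change was not shown. Without IWAT MR3116 the count of alike genes was 267, without BAT CON3106 it was 97, and without the 3 IWAT libraries that stood apart it was 324, with 145 of the 154 among them. Without the 4 lymphocyte-rich IWAT libraries it was 74, of which 68 were among the 154.

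Gyk had the smallest p of the average effect among the higher genes, and Acsl5 and Gpam, which also handle glycerol or fatty acids, are described with it. Gyk, glycerol kinase, which lets a fat cell reuse the glycerol of its own triglyceride (chromosome X, 85701937 to 85776819, GRCm38), had 106 to 503 CPM with a median of 219 in IWAT MR, against 10.1 to 45.6 with a median of 27.7 in IWAT CON. In BAT it had 312 to 804 CPM with a median of 366 in MR libraries, against 115 to 154 with a median of 138 in CON libraries. The diets did not overlap in either depot, and the log2 fold changes were 3.03 ± 0.49 in IWAT and 1.88 ± 0.26 in BAT (SE, n = 6 and 6 in each). The average effect was 2.46 (edgeR adjusted p = 3.29e-05), and the IWAT effect exceeded the BAT effect by 1.16, with a 95% interval of 0.08 to 2.25 and an adjusted p of 0.707. Acsl5, which activates long-chain fatty acids to acyl-CoA (chromosome 19, 55251861 to 55296628), had 545 to 1354 CPM in IWAT MR, against 121 to 295 in IWAT CON, and 624 to 5422 CPM in BAT MR, against 795 to 2135 in BAT CON. The 2 diets were separate in IWAT and overlapped in BAT, with log2 fold changes of 2.33 ± 0.32 in IWAT and 1.00 ± 0.41 in BAT. Gpam, the first acyltransferase of glycerolipid synthesis, had 1.52 ± 0.40 in IWAT and 1.29 ± 0.22 in BAT. Gyk and Gpam were the only 2 alike genes among 17 tested genes of triglyceride synthesis, and Acsl5 the only 1 of 17 in fatty acid uptake and activation. The rule called 0.597% of all genes as higher. Both lists were made with earlier results of these data known, and Gyk and Acsl5 were preset to be named. These counts are therefore no independent test.

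Of 28 tested thermogenic genes, a list of the heat-producing program of brown and beige cells, 6 moved alike, all higher, where the rule called 0.597% of all genes in that direction. They were Ucp1, Dio2, Elovl3, Ppargc1a, Kcnk3 and Gyk. The list was made with earlier results of these data known, and all of these but Kcnk3 were also preset to be named. The share is therefore no independent test. Ucp1 (chromosome 8, 83290348 to 83298456) had 981 to 2193 CPM with a median of 1488 in IWAT MR, against 20.3 to 493 with a median of 95.4 in IWAT CON. In BAT its range was 3720 to 6541 CPM with a median of 5294 in MR libraries, against 1898 to 3899 with a median of 3199 in CON libraries. The diets did not overlap in IWAT and overlapped in BAT by 1 pair of neighbouring values, and the lowest BAT CON library lay within the range of IWAT MR. The log2 fold change was 3.15 ± 0.64 in IWAT and 0.86 ± 0.21 in BAT, with an average of 2.01 (edgeR adjusted p = 0.00143) and a depot difference of 2.33 (95% interval 0.98 to 3.68, adjusted p = 0.293). Dio2, the deiodinase that makes active thyroid hormone inside the cell (chromosome 12, 90724552 to 90739038), had 3.33 to 9.16 CPM in IWAT MR, against 0.393 to 3.17 in IWAT CON, and 23.4 to 65.5 CPM in BAT MR, against 9.02 to 15.8 in BAT CON. Its diets did not overlap in either depot, and the depot difference of 0.80 had an interval of -0.26 to 1.86. Elovl3, which elongates fatty acids in brown fat, had log2 fold changes of 3.43 ± 0.87 in IWAT and 1.43 ± 0.25 in BAT, and in IWAT MR its lowest library, MR3116, stood at 49.8 CPM under a median of 363. Ppargc1a, a coactivator of mitochondrial genes, had 1.25 ± 0.34 in IWAT and 0.77 ± 0.18 in BAT.

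Promoters of Ucp1 and Dio2, of Gyk (Gk in RefSeq) and of Letmd1, described later for its difference between depots, are shown to give the sequence next to each start site. They run 5' to 3' from 250 bases before to 50 after a start of transcription listed in RefSeq on GRCm38.p6; that of Letmd1 lies inside the gene span printed later, not at its 5' end. Capitals mark every match, on either strand, to AGGTCA (the half-site of nuclear receptors), TGACGTCA (the cAMP response element) or TGATGCAA (the core of the amino acid response element).
Ucp1 (chr8:83290098-83290397, plus strand): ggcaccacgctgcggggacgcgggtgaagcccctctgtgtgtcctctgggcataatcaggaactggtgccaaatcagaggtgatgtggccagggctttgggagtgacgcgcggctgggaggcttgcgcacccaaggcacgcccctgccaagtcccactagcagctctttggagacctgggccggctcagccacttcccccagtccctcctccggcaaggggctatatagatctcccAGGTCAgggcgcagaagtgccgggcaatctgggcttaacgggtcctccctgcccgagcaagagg
Dio2 (chr12:90738989-90739288, minus strand): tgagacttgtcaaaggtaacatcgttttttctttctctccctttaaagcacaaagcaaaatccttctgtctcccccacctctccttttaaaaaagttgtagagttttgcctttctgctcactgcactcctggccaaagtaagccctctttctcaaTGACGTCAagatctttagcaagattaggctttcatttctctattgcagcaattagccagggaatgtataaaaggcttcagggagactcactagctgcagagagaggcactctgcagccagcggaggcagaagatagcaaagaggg
Gyk (chrX:85776770-85777069, minus strand): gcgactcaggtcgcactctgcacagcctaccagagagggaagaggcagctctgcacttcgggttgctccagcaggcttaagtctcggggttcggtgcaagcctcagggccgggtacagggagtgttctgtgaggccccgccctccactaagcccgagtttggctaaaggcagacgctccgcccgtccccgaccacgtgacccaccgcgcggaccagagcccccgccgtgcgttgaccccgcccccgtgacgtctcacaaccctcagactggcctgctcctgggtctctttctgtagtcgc
Letmd1 (chr15:100468761-100469060, plus strand): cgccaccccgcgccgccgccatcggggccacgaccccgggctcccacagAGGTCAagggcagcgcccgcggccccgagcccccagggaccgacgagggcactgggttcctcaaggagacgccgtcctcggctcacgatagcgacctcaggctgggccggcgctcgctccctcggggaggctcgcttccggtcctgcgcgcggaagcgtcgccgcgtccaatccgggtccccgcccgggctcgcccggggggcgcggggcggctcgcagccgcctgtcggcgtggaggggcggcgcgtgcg
The Ucp1 and Letmd1 windows each held 1 AGGTCA, the Dio2 window held 1 TGACGTCA, and the Gyk window held no match. Promoters were found for 54 of the 71 higher and 64 of the 83 lower alike genes. AGGTCA stood in 13% of the higher and 12.5% of the lower promoters, against 16% of all 27025 mouse promoters in the table and 12.1% of those of tested genes. TGACGTCA stood in 1.85% of the higher and 3.12% of the lower promoters, against 1.88% of all promoters and 3.17% of those of tested genes. TGATGCAA was in none of the higher or lower promoters, and in 0.929% of all promoters and 0.556% of those of tested genes. These are matches of letters in short windows and say nothing about the binding of a factor.

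**Figure D2:**
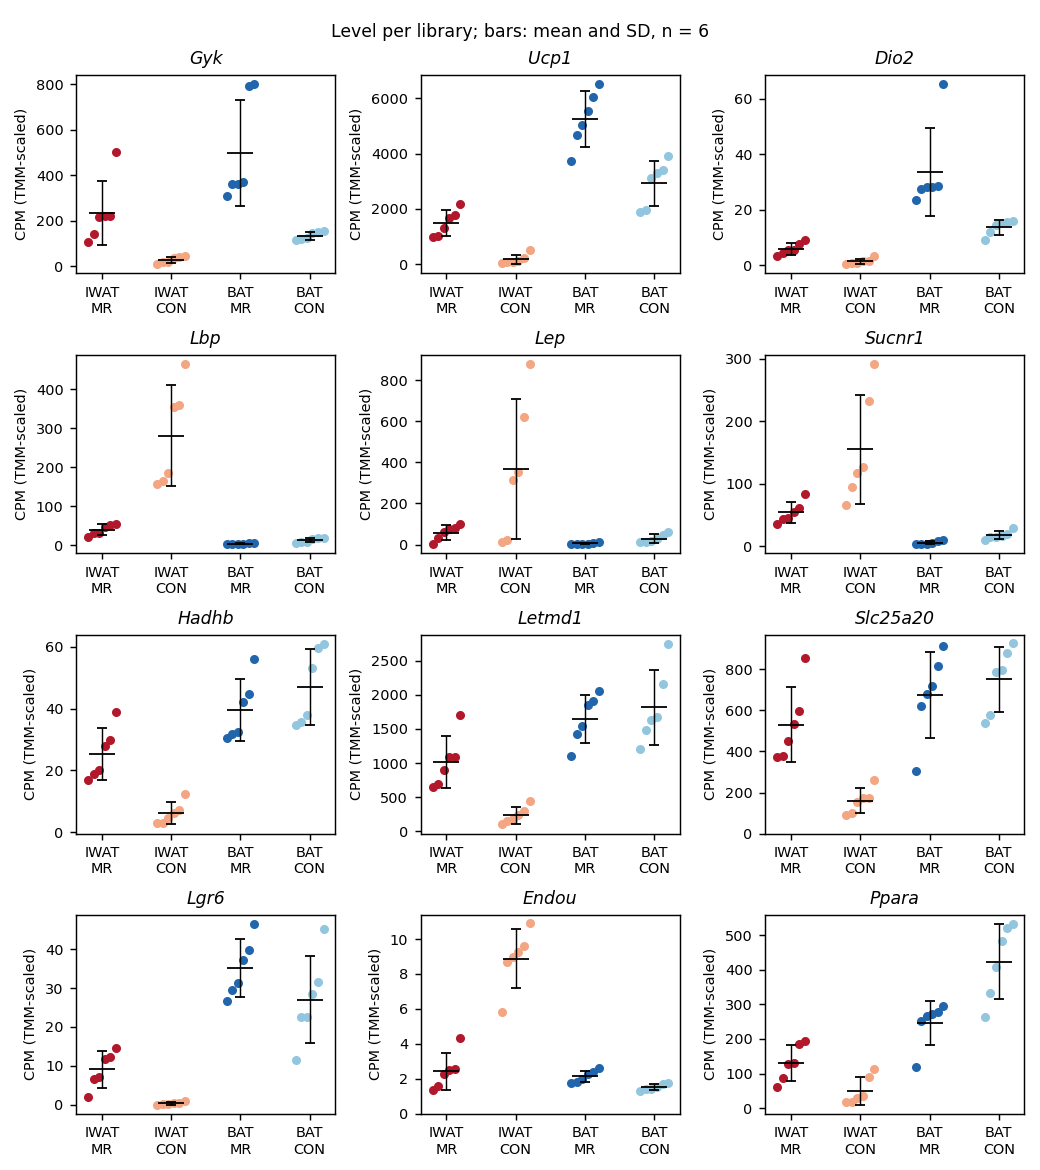
Each dot is 1 library, and the vertical axis of each panel is the TMM-scaled level of a gene in CPM, with IWAT MR, IWAT CON, BAT MR and BAT CON from left to right and black bars for the mean and SD of 6 libraries. Gyk, Ucp1 and Dio2 were higher and Lbp, Lep and Sucnr1 lower under restriction in both depots, while Hadhb, Letmd1 and Slc25a20 were separated by diet in IWAT and overlapped in BAT.

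The other higher genes with the smallest p of the average effect had several roles. Slc4a4, a sodium bicarbonate cotransporter, had log2 fold changes of 2.49 ± 0.39 in IWAT and 1.19 ± 0.28 in BAT, and Adcy10, the soluble adenylyl cyclase, had 2.02 ± 0.36 and 1.00 ± 0.23 in the same order. Ppp1r3b, which targets protein phosphatase to glycogen, had 139 to 193 CPM in IWAT MR, against 12.7 to 63.8 in IWAT CON, and 294 to 494 CPM in BAT MR, against 213 to 371 in BAT CON. Its diets were far apart in IWAT and overlapped in BAT, and its depot difference of 1.92 had an interval of 1.00 to 2.84. Kcnk3, a potassium channel that sets the resting membrane potential, had 1.57 ± 0.32 in IWAT and 0.85 ± 0.18 in BAT. Egln3, a prolyl hydroxylase of the hypoxia response, had 1.76 ± 0.37 in IWAT and 0.98 ± 0.22 in BAT. Urb1, a ribosome biogenesis factor, and Sgpl1, which breaks down sphingosine 1-phosphate, did not overlap between the diets in either depot. Urb1 changed by 1.08 ± 0.21 in IWAT and 0.89 ± 0.18 in BAT, with a depot difference of 0.24 (interval -0.30 to 0.79). Sgpl1 was the only 1 of these 7 with the smaller change in IWAT, at 0.76 ± 0.22 against 1.32 ± 0.23 in BAT.

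**Figure D3:**
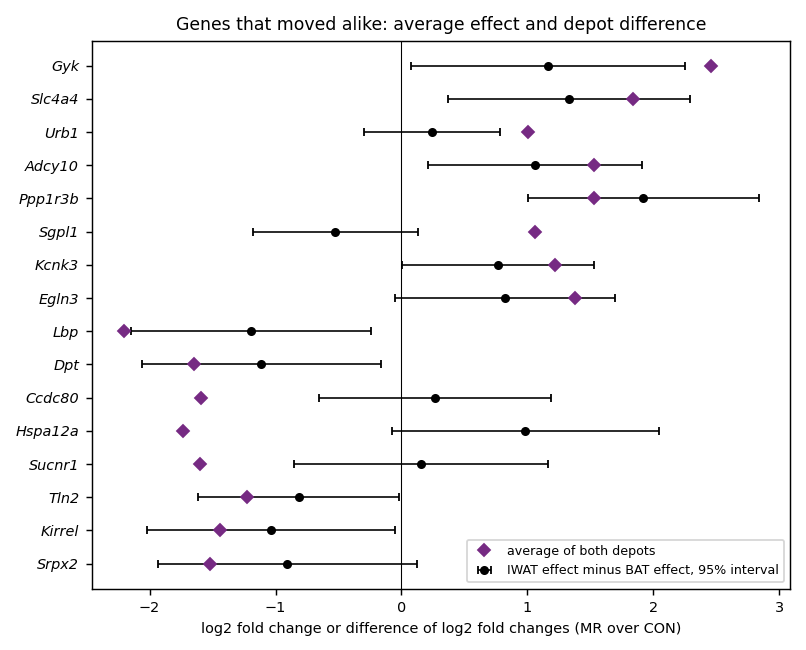
For the 8 higher and 8 lower alike genes with the smallest p, diamonds give the diet effect averaged over both depots and black points the IWAT effect minus the BAT effect with its 95% interval, both on the log2 scale (MR over CON). The intervals of Urb1, Sgpl1, Egln3, Ccdc80, Hspa12a, Sucnr1 and Srpx2 cover 0, and that of Ppp1r3b lies farthest from 0.

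Among the lower genes, Lbp had the smallest p of the average effect. Lbp, the lipopolysaccharide-binding protein (chromosome 2, 158306493 to 158332852), had 22.2 to 55.7 CPM with a median of 39.4 in IWAT MR, against 157 to 465 with a median of 270 in IWAT CON. In BAT, where it was scarce, it had 2.93 to 5.74 CPM with a median of 4.43 in MR libraries, against 6.66 to 19.3 with a median of 12.9 in CON libraries. Neither depot had any overlap between the diets, and Lbp was the only gene that passed in each depot's own test, with log2 fold changes of -2.83 ± 0.38 in IWAT (edgeR adjusted p = 0.0253) and -1.61 ± 0.29 in BAT (edgeR adjusted p = 0.0164). Dpt, the matrix protein dermatopontin, had 114 to 305 CPM in IWAT MR, against 549 to 1945 in IWAT CON, and 23.7 to 38.1 CPM in BAT MR, against 38.8 to 98.4 in BAT CON, also with no overlap. Ccdc80, a secreted matrix protein, had -1.50 ± 0.39 in IWAT and -1.72 ± 0.24 in BAT, and Srpx2, another secreted protein, fell by 2.0 ± 0.31 in IWAT and by 1.08 ± 0.39 in BAT. Sucnr1, the receptor for extracellular succinate, had 35.4 to 82.6 CPM in IWAT MR, against 65.6 to 292 in IWAT CON, and 3.26 to 9.7 CPM in BAT MR, against 10.4 to 28.7 in BAT CON. The diets overlapped in IWAT only, and the depot difference was 0.15 with an interval of -0.86 to 1.16. Hspa12a, a divergent member of the heat shock protein family, had -1.28 ± 0.43 in IWAT and -2.24 ± 0.30 in BAT, Tln2, a talin that links integrins to actin, had -1.66 ± 0.31 in IWAT and -0.80 ± 0.23 in BAT, and Kirrel, an adhesion molecule, fell by 2.0 ± 0.35 in IWAT and by 0.93 ± 0.33 in BAT.

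Of 22 tested genes of white adipocytes and adipocyte hormones, 5 moved alike and all 5 were lower, where the rule called 0.698% of all genes in that direction. They were Lep, Retnla, Rbp4, Mest and Lbp. The list was made with earlier results of these data known, and Lep, Mest and Lbp were also preset to be named, so the share is no independent test. Lep, leptin, which reports fat stores to the brain (chromosome 6, 29060221 to 29073876), had 0.893 to 97.9 CPM with a median of 68.9 in IWAT MR, against 10.2 to 881 with a median of 334 in IWAT CON. In BAT it had 2.52 to 12 CPM with a median of 4.32 in MR libraries, against 12.5 to 62.8 with a median of 20.1 in CON libraries. The diets overlapped in IWAT and did not in BAT, and the log2 fold changes were -2.71 ± 1.04 in IWAT and -2.46 ± 0.50 in BAT, with an interval of -2.59 to 2.22 for their difference. Mest, which marks expanding white fat in mice (chromosome 6, 30733506 to 30748466), had -2.20 ± 0.52 in IWAT and -1.46 ± 0.50 in BAT. The median log2 fold change of the list was -0.895 in IWAT and -0.532 in BAT over 19 genes tested in both depots, against -0.00 in IWAT and 0.00 in BAT over all genes. Without BAT CON3106 the BAT median was -0.09, and without the 4 lymphocyte-rich IWAT libraries 2 genes of the list met the alike rule. Npr3, the natriuretic peptide clearance receptor, had -2.95 ± 0.53 in IWAT and -0.56 ± 0.30 in BAT, and did not meet the alike rule. Adipoq, the adipocyte hormone adiponectin, had -0.83 ± 0.44 in IWAT and 0.24 ± 0.18 in BAT, and passed in neither.

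Of 40 tested genes of collagens and other matrix proteins, 8 moved alike and all 8 were lower, against the same 0.698% of all genes. They were Col3a1, Col5a1, Sparc, Fbn1, Fstl1, Timp3, Nid1 and Mfap5. This list too was made with earlier results of these data known. Col3a1, the collagen of loose connective tissue, had 274 to 448 CPM in IWAT MR, against 611 to 2436 in IWAT CON, and 42.7 to 123 CPM in BAT MR, against 87 to 232 in BAT CON. The diets did not overlap in IWAT and overlapped in BAT, with log2 fold changes of -1.94 ± 0.37 in IWAT and -0.70 ± 0.28 in BAT. Nid1, a basement membrane protein, had -1.24 ± 0.30 in IWAT and -0.78 ± 0.21 in BAT, and Sparc, a collagen-binding protein, had -1.34 ± 0.36 in IWAT and -0.38 ± 0.13 in BAT. The median log2 fold change of the list was -0.976 in IWAT and -0.583 in BAT over 38 genes tested in both depots. Without the BAT library CON3106, 2 matrix genes met the alike rule and the BAT median was -0.448, and without the 4 lymphocyte-rich IWAT libraries 3 met it. Loxl1, a lysyl oxidase that cross-links elastin, went the other way in BAT, at 1.08 ± 0.20 (edgeR adjusted p = 0.0187) and with no overlap there, against -0.01 ± 0.27 in IWAT. All 15 macrophage markers tested in both depots had log2 fold changes below 0 in each, with medians of -0.392 in IWAT and -0.877 in BAT. The IWAT median was -0.0754 without IWAT CON3107 and -0.777 without the 4 lymphocyte-rich IWAT libraries. The BAT median was -0.47 without BAT CON3106. Of 19 tested for the average effect, 3 met the alike rule, namely Emr1, Ccl6 and Mrc1, all lower, against the same 0.698% of all genes. This count was 1 without BAT CON3106 and 0 without the 4 lymphocyte-rich IWAT libraries. The summed level of the macrophage list ran from 677 to 3560 CPM (median 2109) in IWAT MR, against 1002 to 6018 (median 1922) in IWAT CON. In BAT it ran from 226 to 287 CPM (median 243) in MR libraries, against 275 to 1614 (median 359) in CON libraries. The part of macrophages in the matrix result was not tested.

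The difference between the depots itself passed for 3 of 11884 genes (0.0252%) in the edgeR quasi-likelihood test, and 783 genes (6.59%) had an unadjusted p under 0.05. With the animal as a replicate block none passed and 598 had an unadjusted p under 0.05, while DESeq2 without a block called 66. Without the IWAT library CON3114 the count was 39, and without the BAT library MR3102 it was 1. Without the 4 lymphocyte-rich IWAT libraries it was 0 (unadjusted p under 0.05 in 701 genes), and Lgr6, Endou and D3Bwg0562e kept their directions there without passing. Lgr6, a receptor for R-spondins (chromosome 1, 134983300 to 135105374), had 2.01 to 14.7 CPM with a median of 9.48 in IWAT MR, against 0 to 0.964 with a median of 0.306 in IWAT CON. In BAT it had 26.7 to 46.5 CPM with a median of 34.3 in MR libraries, against 11.6 to 45.3 with a median of 25.6 in CON libraries. In IWAT, where every control library held at most 7 counts, the diets were separate, and in BAT they overlapped. The depot difference was 4.13 ± 0.67 (SE) with an edgeR adjusted p of 0.0139, and the block gave 4.15 with an edgeR adjusted p of 0.116. With IWAT CON near the floor its size depends on the pseudocount, and it was 2.07 on the authors' signal with a pseudocount of 8. An exact permutation of the diets over the 12 animals gave an unadjusted two-sided p of 0.00216, the smallest that 924 assignments allow. Letmd1, Cox8b and Ucp1, which did not pass for the depot difference, had the same permutation p. Since Lgr6 was picked by its p in these same libraries, the permutation is no separate support for it.

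Endou, an endoribonuclease that cuts at uridines (chromosome 15, 97711015 to 97731405), had opposite signs in the depots. It had 1.34 to 4.35 CPM with a median of 2.39 in IWAT MR, against 5.81 to 10.9 with a median of 9.12 in IWAT CON. In BAT it had 1.76 to 2.61 CPM with a median of 2.11 in MR libraries, against 1.32 to 1.75 with a median of 1.47 in CON libraries. Its counts in BAT were low, at 11 to 18 per MR library and 8 to 24 per CON library. The diets did not overlap in either depot. The log2 fold changes were -1.89 ± 0.33 in IWAT and 0.49 ± 0.20 in BAT, and the difference was -2.33 ± 0.36 (edgeR adjusted p = 0.0139). Its exact permutation p was 0.00216, unadjusted and again the smallest possible, so the limit given for Lgr6 holds here too. With the animal as a block the difference was -2.39 (edgeR adjusted p = 0.131). D3Bwg0562e, which RefSeq lists as Plppr4 and which belongs to the lipid phosphatase-related proteins known from neurons (chromosome 3, 117319145 to 117360876), had 0.223 to 0.841 CPM in IWAT MR, against 2.34 to 12.2 in IWAT CON, and 0.42 to 0.931 CPM in BAT MR, against 0.142 to 1 in BAT CON. The diets were separated in IWAT and overlapped in BAT, where no library reached more than 14 counts. Its depot difference was -3.49 ± 0.61 (edgeR adjusted p = 0.0286), and with the block it was -3.52 (edgeR adjusted p = 0.116). It passed in 19 of 40 other settings, against 35 of 41 for Lgr6 and 37 of 40 for Endou. These settings overlap, since most leave out 1 library each and the fit without IWAT CON3107 is counted again under another name.

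Behind these genes stood enzymes of fatty acid oxidation and other mitochondrial proteins, with log2 fold changes well above 0 in IWAT and near 0 in BAT, none of which passed the threshold for the difference. Hadhb, a subunit of the trifunctional protein of mitochondrial fatty acid oxidation (chromosome 5, 30155253 to 30184593), had 16.8 to 38.9 CPM with a median of 24 in IWAT MR, against 2.91 to 12.5 with a median of 5.45 in IWAT CON. In BAT it had 30.4 to 56.1 CPM with a median of 37.2 in MR libraries, against 34.6 to 60.9 with a median of 45.4 in CON libraries. The diets did not overlap in IWAT and overlapped in BAT, and the highest IWAT MR library lay within the BAT ranges. The log2 fold changes were 2.03 ± 0.41 in IWAT and -0.24 ± 0.21 in BAT, with a difference of 2.30 (95% interval 1.40 to 3.21, edgeR adjusted p = 0.0697). Letmd1, a mitochondrial protein that mice need for brown fat thermogenesis (chromosome 15, 100462421 to 100479252), had 645 to 1707 CPM in IWAT MR, against 101 to 443 in IWAT CON, and 1111 to 2056 CPM in BAT MR, against 1205 to 2747 in BAT CON. Its diets were likewise apart only in IWAT, with a depot difference of 2.25 (edgeR adjusted p = 0.0766). Cox8b, a cytochrome oxidase subunit of brown fat and muscle (chromosome 7, 140898942 to 140900446), differed by 1.98 (edgeR adjusted p = 0.108). Slc25a20, which carries acylcarnitines into mitochondria, differed by 1.89, and Crat, carnitine acetyltransferase, by 1.61 (edgeR adjusted p = 0.127 and 0.138). Over the same overlapping settings, Hadhb passed in 6 of 41, Letmd1 in 5, Cox8b in 4, and Slc25a20 and Crat in 3 each.

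**Figure D4:**
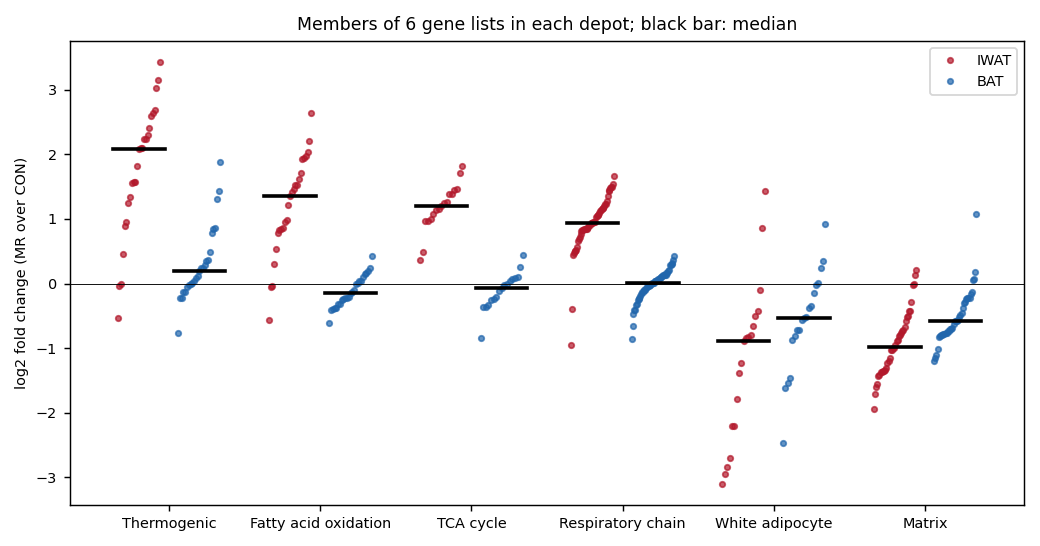
Each dot is 1 gene of a list, sorted by value, with its log2 fold change (MR over CON) on the vertical axis, IWAT in red left of BAT in blue, and a black bar for the median. In the oxidation, TCA cycle and respiratory chain lists the IWAT medians lie at 1.36, 1.21 and 0.945 and the BAT medians at -0.14, -0.08 and 0.01, while the white adipocyte and matrix medians lie below 0 in both depots.

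The same contrast ran through whole lists of mitochondrial genes. Of 25 tested genes of fatty acid oxidation, 24 had a higher diet effect in IWAT than in BAT, with a median depot difference of 1.47 on the log2 scale. The median log2 fold change of this list was 1.36 in IWAT and -0.14 in BAT. All 17 tested enzymes of the TCA cycle had a higher effect in IWAT, with a median difference of 1.17, and medians of 1.21 in IWAT and -0.08 in BAT. Of 51 subunits of the respiratory chain and ATP synthase, 49 had a higher effect in IWAT, with a median difference of 1.04, and medians of 0.945 in IWAT and 0.01 in BAT. Of all tested genes 56.5% lay above 0, with a median of 0.09. These genes share their libraries and are not independent, so the counts describe the lists and carry no test. In edgeR 0 members of these 3 lists passed singly for the depot difference. An unadjusted p under 0.05 was found for 15, 9 and 18, all with the higher effect in IWAT (4.1% of all genes). With library weights, limma voom called 5, 2 and 1, against 57 of all 11884 tested genes. The 3 list medians were 1.32, 1.06 and 0.835 without the IWAT libraries that stood apart, 1.54, 1.35 and 0.874 without the 4 lymphocyte-rich ones, and 1.56, 1.35 and 1.13 with the animal as a block. Atp5b, the catalytic subunit of ATP synthase, had log2 fold changes of 1.24 ± 0.29 in IWAT and 0.16 ± 0.20 in BAT, and Idh3b, of isocitrate dehydrogenase, had 1.82 ± 0.46 in IWAT and -0.24 ± 0.29 in BAT. Fh1, fumarase, had 1.39 ± 0.44 in IWAT and -0.37 ± 0.19 in BAT.

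The thermogenic list thus held both patterns. Its median log2 fold change was 2.08 in IWAT and 0.20 in BAT over 25 genes tested in both depots (0.07 in BAT without CON3106). Of 28 tested genes, 25 had a higher effect in IWAT, against 56.5% of all tested genes. The effect averaged over both depots passed for 13 of the 28 (46.4%, against 2.45% of all genes), all higher. No member passed for the depot difference in edgeR. At an unadjusted p under 0.05, 18 had the higher effect in IWAT, against 4.1% of all genes, and 1 in BAT, against 2.49%. With library weights, limma voom called 5, against 57 of all 11884 tested genes. Besides the 6 alike genes, the average passed for Cox8b, Cox7a1, Otop1, Letmd1, Slc27a2, Cidea and Bmp8b. Cidea, a lipid droplet protein of brown fat, had 2.23 ± 0.62 in IWAT and 0.12 ± 0.21 in BAT. Bmp8b, a growth factor of brown fat, was found almost only in BAT, with 3.08 to 13.1 CPM in BAT MR, against 0.236 to 1.23 in BAT CON, and at most 1.01 CPM in IWAT MR, against 0 counts in all IWAT CON libraries. Its diets did not overlap in BAT (log2 fold change 3.09 ± 0.41, edgeR adjusted p = 0.00308), and it was too scarce in IWAT to be tested there. Its fitted depot difference of 0.96 and its average effect both rest on the 0 counts of IWAT CON, and neither is a measure of size. Mfsd2a, a transporter of lysolipids, likewise passed in BAT at 4.11 ± 0.70 (edgeR adjusted p = 0.012), with 1.73 to 10.8 CPM in BAT MR, against 0 to 0.716 in BAT CON, and at most 1.12 CPM in IWAT MR, against 0.922 in IWAT CON. Lists of fatty acid synthesis and of nuclear receptors and cAMP signalling had medians of 0.706 and 0.375 in IWAT, and -0.03 and 0.17 in BAT.

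Opposite signs with an unadjusted p under 0.05 in each depot were found for 20 genes, and those named here, after Endou, did not pass for the depot difference. Ppara, the nuclear receptor that senses fatty acids and drives their oxidation (chromosome 15, 85734910 to 85806851), had 62.3 to 195 CPM with a median of 130 in IWAT MR, against 18.2 to 112 with a median of 32.3 in IWAT CON. In BAT it had 120 to 296 CPM with a median of 268 in MR libraries, against 262 to 532 with a median of 446 in CON libraries. The diets overlapped in both depots. The log2 fold changes were 1.35 ± 0.50 in IWAT and -0.77 ± 0.23 in BAT, with a difference of 2.16 (95% interval 0.99 to 3.33, edgeR adjusted p = 0.262). Lyrm7, an assembly factor of respiratory complex III, had 1.49 ± 0.39 in IWAT and -0.34 ± 0.15 in BAT. Calu, a calcium-binding protein of the secretory pathway, had -0.69 ± 0.24 in IWAT and 0.52 ± 0.18 in BAT, and Tmem198 had -0.76 ± 0.31 in IWAT and 1.04 ± 0.24 in BAT. Lpl, the lipoprotein lipase that takes up circulating triglyceride, had -0.83 ± 0.33 in IWAT and 0.52 ± 0.20 in BAT (edgeR adjusted p = 0.293 for the difference).

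Genes that answer amino acid shortage did not pass in either direction. Of 30 tested targets of the amino acid response and its factor ATF4, 0 passed for the depot difference or the average in edgeR, and 0 had an unadjusted p under 0.05 for the difference. Their median log2 fold change was 0.416 in IWAT and 0.02 in BAT over 24 genes tested in both depots. Asns, asparagine synthetase, had 0.34 ± 0.37 in IWAT and 0.24 ± 0.20 in BAT, and Psat1 and Phgdh of serine synthesis had differences of -0.13 and 1.39 with intervals of -1.58 to 1.32 and -1.46 to 4.24. Fgf21, a hormone made mainly by liver, had 0 to 17 counts per library in IWAT MR and 2 to 9 in BAT MR, against 1 to 8 in IWAT CON and 2 to 11 in BAT CON, and was too scarce to test. Of 24 tested genes of the methionine cycle and glutathione synthesis, 1 moved alike and was lower, where the rule called 0.698% of all genes as lower. It was Ahcyl2, a relative of S-adenosylhomocysteine hydrolase, with -1.12 ± 0.30 in IWAT and -0.73 ± 0.17 in BAT. Of 22 tested genes of cholesterol synthesis, 0 passed for either term in edgeR and 0 had an unadjusted p under 0.05 for the difference. Scd1, the desaturase of fatty acid synthesis, passed in BAT at -0.97 ± 0.18 (edgeR adjusted p = 0.0176), with -0.33 ± 0.36 in IWAT and a depot difference of 0.68 (interval -0.11 to 1.47).

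Marker lists of other cell types moved with some libraries. The median depot difference of the 12 tested hepatocyte markers was 3.75, and 0.109 without BAT CON3106, and that of the 14 tested lymphocyte markers was 4.09, and 0.58 without BAT CON3106. Without IWAT CON3107 the lymphocyte median was 7.83, and without the 4 lymphocyte-rich IWAT libraries the medians were 1.17 for hepatocyte and 4.32 for lymphocyte markers. Summed hepatocyte markers were 1034 to 9112 CPM in IWAT MR, against 1027 to 11327 in IWAT CON, and 304 to 687 CPM in BAT MR, against 606 to 4627 in BAT CON. The BAT CON3106 library was the highest of its group for both lists, and in IWAT the hepatocyte sum was high in MR3113 at 9112, in CON3103 at 11327 and in CON3114 at 4663 CPM. No member of either list passed for the depot difference or the average in edgeR. For the difference, 5 hepatocyte and 4 lymphocyte markers had an unadjusted p under 0.05. All of these had the higher effect in IWAT, as did 4.1% of all genes at that p. Skeletal muscle markers, summed, ran from 222 to 985 CPM (median 333) in IWAT MR, against 155 to 3613 (median 615) in IWAT CON. In BAT they ran from 904 to 13737 CPM (median 7225) in MR libraries, against 479 to 34675 (median 3775) in CON libraries. The median BAT sum was thus higher in MR, while the highest sum was that of a CON library. The median log2 fold change of these markers was -1.66 in IWAT and -0.55 in BAT over 11 genes tested in both depots. Their median depot difference over 19 tested genes was -1.04, with 1 above 0, and -3.61 without the 4 lymphocyte-rich IWAT libraries. The macrophage, Schwann cell, endothelial and red cell lists had median depot differences of 0.805, 0.53, 0.01 and 0.03, and of 0.116, 0.07, -0.143 and -0.164 without those 4 libraries. No member of these 5 lists passed for the depot difference in edgeR. The part of these cells in the results for fat genes was not tested, and the median depot difference of the fatty acid oxidation list was 1.55 without BAT CON3106, 1.32 without IWAT CON3107 and 1.54 without the 4 lymphocyte-rich IWAT libraries.

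**Figure D5:**
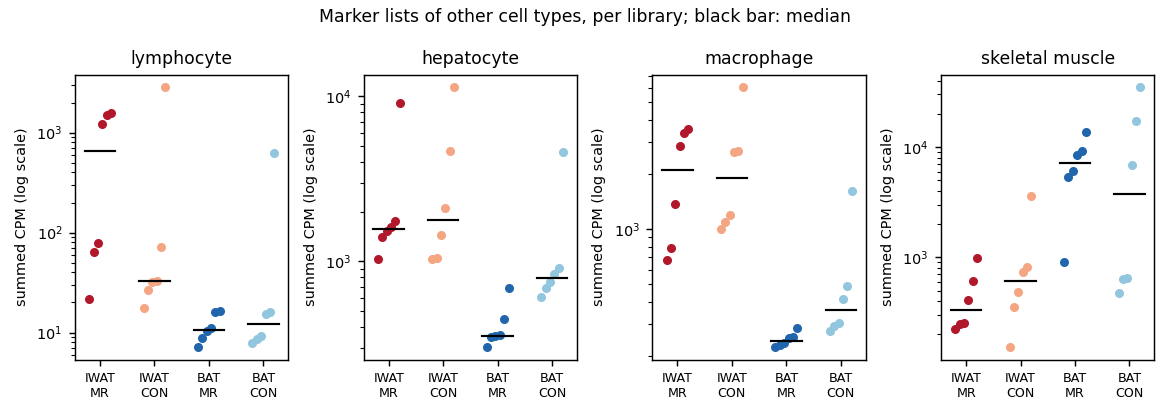
Each dot is 1 library, and the vertical log axis is the summed level in CPM of the markers of lymphocytes, hepatocytes, macrophages and skeletal muscle, with IWAT MR, IWAT CON, BAT MR and BAT CON from left to right and a black bar for the median. The single high BAT CON dot in the first 3 panels is the library CON3106, and the high lymphocyte dots in IWAT are 3 MR libraries and CON3107.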

How the data were processed

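Tags from SOLiD SAGE libraries, made from 7 to 12 ng of RNA, were matched uniquely to mouse RefSeq genes, per the labels. The authors deposited raw counts per gene symbol and a normalized signal, in which each library's raw counts were divided by its size factor; the submitters' processing notes name DESeq, mm10 and GRCm38.p1. The sources used here give neither the aligner and counter nor whether strand was used.

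Counts of both depots were joined by symbol (26608 symbols). Genes passed edgeR's filterByExpr (minimum count 10), which kept 11884 genes and 99.8% of counts, and were tested after TMM scaling with edgeR 4.0.16 (R 4.3.3) quasi-likelihood fits, with Benjamini-Hochberg adjustment at 0.05. The 24-library fit gave the depot difference, (MR minus CON in IWAT) minus (MR minus CON in BAT), and the average of both diet effects. Log2 fold changes within a depot come from a fit of its 12 libraries alone (11101 genes in IWAT, 10791 in BAT), so their difference can depart slightly from the depot difference. Intervals are 95% intervals of the fit. limma 3.58.1 and DESeq2 1.42.0 were alternatives, and the fits were tested on simulated data. The joined tables held 0 identical libraries and 0 columns without a sample.

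Animal numbers pair the depots. Deviations from the group means correlated at a mean of 0.02 between depots of 1 animal (-0.13 to 0.31) and 1 of 12 animals correlated best with itself.

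Members and lists were chosen with earlier results of these data known. Genes were named by rule: those past the threshold for the depot difference with a mean of at least 20 counts in a group, up to 6 with opposite signs among all tested genes, the 8 higher and 8 lower alike genes with the smallest p, up to 3 members of each list with the smallest p for the difference, and a preset group. Predicted genes and clone names were not named, and 1 gene chosen by the rule is not reported here. Gpam, Retnla, Rbp4, Cox7a1, Otop1, Ahcyl2, 7 matrix genes and 3 macrophage genes were named after their values were seen. So were the genes whose values are given under other observations.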

Additional observations from a re-analysis of the deposited data

Results flagged for a closer look

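The depot difference passed its test for Lgr6 at 4.13, for Endou at -2.33 and for D3Bwg0562e at -3.49 on the log2 scale.

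Among 320 combinations of 80 named genes and 4 groups, 27 had a library farther from the rest of its group than Dixon's 95% limit allows, where chance alone gives about 1 in 20. Each value here is the gap to the nearest library divided by the range of the group, on log2 CPM with a prior count of 2. The library IWAT MR3116 was the lowest for 10 genes, at 0.647 for D3Bwg0562e, 0.738 for Fabp3, 0.728 for Elovl3, 0.9 for Gpd1, 0.653 for Cidea, 0.819 for Plin5, 0.762 for Lep, 0.869 for Fasn, 0.72 for Igf1 and 0.765 for Sfrp5. The library BAT MR3109 stood out for 8 genes. It was the lowest at 0.823 for Ppara, 0.675 for Ndufa10, 0.652 for Slc25a20, 0.717 for Ctss and 0.667 for Fasn, and the highest at 0.66 for Urb1, 0.723 for Loxl1 and 0.797 for Ddit3.

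The other 9 values came from 6 libraries. BAT MR3116 was the lowest for Tmem198 at 0.626 and the highest for Dio2 at 0.809. IWAT CON3107 was the lowest for Endou at 0.638, and IWAT CON3106 was the lowest for Urb1 at 0.628 and for Esrra at 0.638. BAT CON3114 was the lowest for Hspa12a at 0.777, and BAT CON3115 was the highest for Ddit3 at 0.673. BAT CON3106 was the highest for Lyz2 at 0.644 and for Igf1 at 0.658.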

How the results depend on the processing

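The count of genes with a depot difference (3) was 66 with DESeq2, 6 with limma voom, 57 with voom and library weights, 1 with depot weights, 1 with the stricter filter, 10 without the 3 IWAT libraries that stood apart, 1 without those 3 animals in both depots, 0 without the 4 lymphocyte-rich IWAT libraries, 7 in a fit of all 47 libraries and 1 to 39 with 1 library left out. With the animal as a replicate block it was 0 in edgeR and 2 in voom. The count of alike genes (154) was 433 with library weights, 324 without the 3 IWAT libraries, 250 without the 3 animals, 74 without the 4 lymphocyte-rich libraries and 97 to 267 with 1 library left out; the voom replicate block gave 151, of which 133 were shared. The IWAT count (3) was 6 with upper-quartile factors, 310 with DESeq2, 7 with voom, 467 with library weights, 6 with the stricter filter, 12 and 19 on the authors' signal with pseudocounts of 1 and 8, 0 without the 3 libraries or the 3 animals, 0 without CON3107, 0 without the 4 lymphocyte-rich libraries, 319 from the 24-library fit and 0 to 41 with 1 library left out. The BAT count (120) was 317 with DESeq2, 223 with library weights, 42 without the 3 animals, 10 from the 24-library fit and 50 to 111 with 1 library left out. The causes were not tested, and leaving out libraries also lowers the number of samples.

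The sign of the average effect held in all settings for the 24 genes named for it, of which 22 passed in all 40 settings, Mest in 39 and Lep in 34. The depot difference changed sign, without passing, for 6 genes. Ccdc80 was -0.12 with library weights. Sucnr1 was -0.0627 without CON3107, and -0.0725 to 0.374 with 1 library left out. Lep was 0.21 with voom and with its block, 0.20 with depot weights, 0.12 and 0.041 on the authors' signal and 0.12 in the permutation, and -0.62 to 0.24 with 1 library left out. Bmp8b, at 0 counts in IWAT CON, was -1.43 with voom and with its block, -1.28 with library weights, -1.42 with depot weights and -1.94 in the permutation, and -0.0734 to 1.30 with 1 library left out. Asns was -0.0232 with library weights, -0.0663 without CON3107 and -0.23 to 0.31 with 1 library left out. Psat1 was 0.23 without the 3 libraries, 0.0681 without the 4 lymphocyte-rich ones and -1.02 to 0.0471 with 1 library left out.

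The wide spread of IWAT limits the depot difference, and a gene near the floor of 3 counts in 1 depot has a fitted fold change that depends on the prior count.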

Other observations

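Single genes of glycogen and of lipid breakdown stood among the alike genes, which were 1.3% of all genes. Those named here were chosen after their values were seen. In the list of lipolysis and lipid droplet genes, 0 of 21 tested genes moved alike. Ppp1r3c, which targets protein phosphatase to glycogen like Ppp1r3b, had log2 fold changes of 1.74 ± 0.43 in IWAT and 0.74 ± 0.18 in BAT (SE, edgeR adjusted p = 0.00491 for the average). Gyg, the primer of glycogen synthesis, had 0.91 ± 0.29 in IWAT and 0.65 ± 0.27 in BAT. Abhd6, a monoacylglycerol lipase, had 1.13 ± 0.26 in IWAT and 0.44 ± 0.13 in BAT, and Lipa, the lysosomal acid lipase, had 0.89 ± 0.32 in IWAT and 0.64 ± 0.24 in BAT.

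Some receptors and signals were among the 83 lower alike genes (0.698% of all genes). Those named here were also chosen after their values were seen. Tshr, the thyrotropin receptor, fell by 1.06 ± 0.36 in IWAT and by 1.00 ± 0.22 in BAT (edgeR adjusted p = 0.00753 for the average). Oxtr, the oxytocin receptor, had -1.19 ± 0.37 in IWAT and -1.61 ± 0.53 in BAT, and Fgf10, a growth factor of fat precursor cells, had -0.92 ± 0.32 in IWAT and -1.21 ± 0.46 in BAT. Anxa1, annexin A1, had -2.10 ± 0.39 in IWAT and -1.09 ± 0.35 in BAT. Cxcl14, a chemokine, had opposite signs, at -1.38 ± 0.63 in IWAT and 0.96 ± 0.19 in BAT, and did not pass for the depot difference in edgeR (adjusted p = 0.293).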
